A study of Mus musculus with 9 samples.

Results

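Mitochondrial ribosomal protein mRNAs were followed through an RNA immunoprecipitation of CELF2, an RNA-binding protein of neurons, from newborn mouse cortex. The members were all protein-coding genes whose symbol is *Mrpl* or *Mrps* followed by a number. No gene was picked or dropped by its value, but the set was chosen with earlier results of these data known. There were 78 such genes, 49 named *Mrpl* and 29 named *Mrps*, among 18559 protein-coding genes with a count. All 78 passed the filter on low counts that left 15267 genes for testing, so none of the members was lost to it.

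Ribosomes of mitochondria translate the few proteins that are encoded in mitochondrial DNA, all of them core parts of the respiratory chain and of ATP synthase. Their rRNA comes from the mitochondrial genome, but every one of their proteins is encoded in the nucleus, translated by cytoplasmic ribosomes and imported. The large subunit joins amino acids and holds the exit tunnel, and the small subunit binds the mRNA and reads its codons. Part of the set descends from bacterial ribosomal proteins, and the rest was added during the evolution of mitochondria.

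All 9 libraries came from the cytoplasmic fraction of cortices of mice on postnatal day 0 that were heterozygous for *Celf2* p.R493H, a knock-in (KI) allele. The CELF2-KI RIP group was precipitated for 3 hours at 4 °C with a rabbit antibody against CELF2 (10 µg), the IgG RIP group with the same amount of normal rabbit IgG, and the input group is an aliquot of the same kind of fraction that met no antibody. There were 3 biological replicates in each group, and the sources used here do not say how many animals or litters they came from. No wild-type library was part of the comparison, so each value describes the heterozygous KI cortex, and the antibody is not stated to tell the mutant protein from the wild-type one. The fraction held all cell types of the cortex, so no value can be assigned to one of them. All groups started from the same kind of fraction, so a difference between them describes RNA recovered and does not measure cell numbers.

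Protein-coding counts per library were 13523208 to 16840312 in the CELF2-KI RIPs, 9347321 to 14965243 in the IgG RIPs and 55250740 to 78514685 in the input. Rows that could not be assigned to a gene held 11.6% to 12.6% of counts in the CELF2-KI RIPs and 9.24% to 9.75% in the input, but 43.5%, 41.5% and 21.1% in IgG RIPs 1, 2 and 3. They were left out of all library sizes. *Celf2* mRNA itself stood at 470, 796 and 647 CPM (read counts scaled to the depth of the library) in the CELF2-KI RIPs, 267, 231 and 200 CPM in the IgG RIPs and 303, 278 and 305 CPM in the input. It was above both controls, by 1.46 on the log2 scale (SE 0.18) over IgG RIP and 1.11 (SE 0.18) over input, although the second value was under 2-fold with every other library scaling that was tried. The value over input was also under 2-fold without CELF2-KI RIP 2 (0.92) or without input 2 (0.95). Markers of red blood cells were present, and the nuclear-retained RNA *Malat1* was counted at 4426 ± 531, 4561 ± 873 and 3129 ± 249 CPM (SD, n = 3) in the 3 groups in that order, although the fraction is labelled cytoplasmic. Other listed nuclear-retained RNAs had means of 1345, 946 and 692 CPM (*Meg3*) and 1233, 989 and 538 CPM (*Miat*). *Kcnq1ot1* had 2296, 3904 and 717 CPM, and *Neat1* 50.4, 75.9 and 17.2 CPM. Each of these RNAs was lowest on average in the input. CPM throughout was computed on protein-coding counts after TMM scaling of the library.

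The stretches just upstream of 5 members are printed, 4 of them chosen because they hold letters that were searched for and the last because its gene moved the other way. In the RefSeq sequence table of GRCm38.p6, 69 of the 78 members had a window from 250 bases before to 50 bases after a transcription start, 75 windows in all. The letters CCGGAAG, the core that ETS-family factors such as GABPA bind, were found on either strand in 26 of the 75 windows (34.7%) and in 11.6% of the 21263 windows of protein-coding genes. The palindrome bound by NRF1, a regulator of nuclear genes for mitochondria, searched as GCGC, then any base, then TGCGC, was in 13 windows (17.3%) against 6.38% of all windows. CAAGATGG, bound by YY1, was in 9 windows (12%) against 2.22%, and TATAAA in 5 (6.67%) against 12.6%. These strings were chosen after several had been counted, and a match is only a run of letters. Among the 75 stretches of 100 bases just before a start, 24 held the ETS, NRF1 or YY1 letters and 51 held none, so the first 4 stretches below are not typical of the members. In the 100 bases before the start that follow, 5′ to 3′ on the gene's strand, capitals mark those letters, on the strand shown or as their reverse complement. *Mrpl12* (chr11:120484537-120484636, plus strand) and *Mrps21* (chr3:95871515-95871614, minus strand) hold the NRF1 letters, *Mrpl34* (chr8:71464826-71464925, plus strand) the ETS letters, *Mrpl52* (chr14:54426809-54426908, plus strand) the ETS and YY1 letters, and *Mrpl10* (chr11:97041482-97041581, plus strand), which behaved unlike the other 4 in the RIP, none of them.
Mrpl12: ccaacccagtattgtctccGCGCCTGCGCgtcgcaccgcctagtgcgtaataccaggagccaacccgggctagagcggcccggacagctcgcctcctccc
Mrps21: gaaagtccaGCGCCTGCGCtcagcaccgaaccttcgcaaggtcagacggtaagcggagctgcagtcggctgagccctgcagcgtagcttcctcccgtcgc
Mrpl34: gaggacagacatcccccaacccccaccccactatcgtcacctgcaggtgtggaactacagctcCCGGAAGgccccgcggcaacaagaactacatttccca
Mrpl52: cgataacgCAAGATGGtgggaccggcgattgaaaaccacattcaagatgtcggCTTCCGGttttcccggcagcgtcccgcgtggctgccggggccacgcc
Mrpl10: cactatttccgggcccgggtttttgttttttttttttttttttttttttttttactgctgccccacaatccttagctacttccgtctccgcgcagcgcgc
Over IgG RIP, the median log2 fold change was -0.37 in the 13 members with the NRF1 letters in a window and -0.93 in the 56 without, -0.83 in the 26 with the ETS letters and -0.83 in the 43 without, and -1.57 in the 9 with the YY1 letters and -0.70 in the 60 without. These are medians of groups that were not tested against each other.

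As a set, mitochondrial ribosomal protein mRNAs were less abundant in the CELF2-KI RIPs than in either control. Their summed level was 569, 592 and 527 CPM in the CELF2-KI RIPs, 818, 837 and 846 CPM in the IgG RIPs and 1151, 1123 and 1182 CPM in the input. The 3 groups did not overlap, and the IgG RIPs lay between the other two. As a share of all protein-coding counts, with no scaling factor, the members took 0.050%, 0.0457% and 0.0437% in the CELF2-KI RIPs, 0.0874%, 0.0903% and 0.0889% in the IgG RIPs and 0.131%, 0.130% and 0.132% in the input. The order of the groups was the same on this scale.

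**Figure D1:**
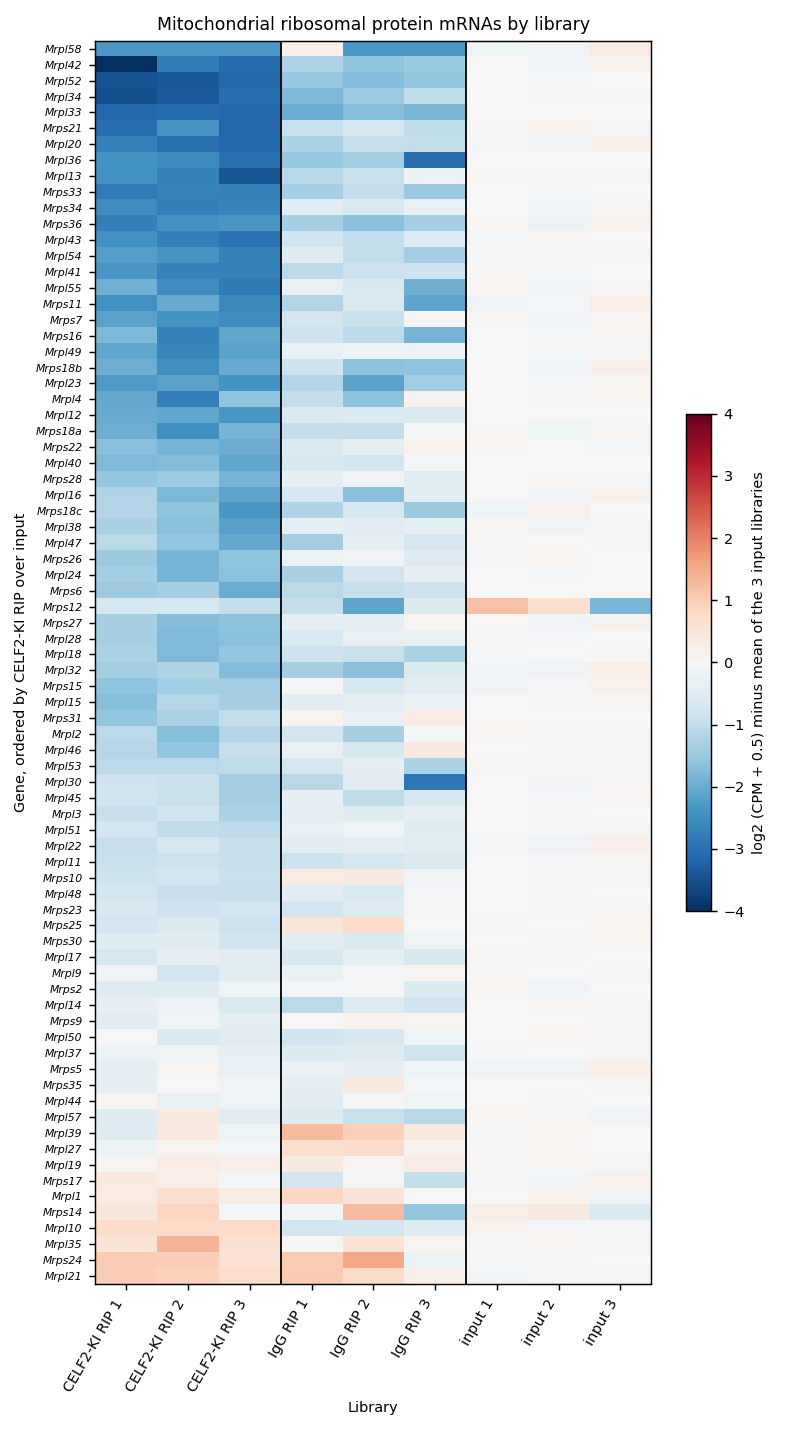
Level of each of the 78 members in each of the 9 libraries, as log2(CPM + 0.5) minus the mean of the 3 input libraries on that scale (colour), with members ordered by their fold change of CELF2-KI RIP over input (rows) and libraries grouped (columns). The CELF2-KI RIP columns are blue for most rows, the IgG RIP columns paler, and a few rows at the bottom, among them *Mrpl10* and *Mrpl35*, are red in the CELF2-KI RIPs.

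In CELF2-KI RIP over IgG RIP, the comparison that sets the antibody against a nonspecific one, 31 of the 78 members were lower by at least 2-fold at a false discovery rate (FDR) under 0.01 by edgeR's quasi-likelihood test. That is 39.7% of the members, against 13.6% of all tested genes. A single member, *Mrpl10*, was higher, against 13.4% of all tested genes. The median log2 fold change of the members was -0.93, and that of all tested genes -0.06. Without a requirement on the size of the change, 33 members were lower and 1 was higher, against 19.2% and 22.9% of all tested genes. All 3 CELF2-KI RIP libraries lay below all 3 IgG RIP libraries for 40 members, against 27.4% of all tested genes, and above them for 3, *Mrpl10*, *Mrpl37* and *Mrpl57*, against 30.0%.

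In CELF2-KI RIP over input, 46 members were lower, against 15.5% of all tested genes, and none was higher, against 14.6%. At an unadjusted p under 0.05, edgeR gave 4 members as higher and 59 as lower, and DESeq2's Wald test also called 0 as higher. DESeq2 called 1703 of all tested genes as higher, and counts at an unadjusted p were not made over all genes. The median log2 fold change was -1.60, and that of all tested genes 0.19. In 62 members all CELF2-KI RIP libraries lay below all input libraries, against 31.8% of all tested genes. At an FDR under 0.01 with no limit on the fold, 54 members were lower and 2, *Mrpl10* and *Mrpl35*, were higher, against 20.1% and 26.8%.

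IgG RIP over input shows what the beads and a nonspecific antibody retained. Here 11 members were lower, against 5.0% of all tested genes, and none was higher, against 6.79%. At an unadjusted p under 0.05, edgeR gave 6 members as higher and 43 as lower, and DESeq2 called 0 as higher and 19 as lower. Of all tested genes, DESeq2 called 1119 as higher and 1126 as lower. The median log2 fold change was -0.59, and that of all tested genes -0.0036. The count of lower members rested on single libraries more than the other 2 comparisons did, since it was 6 without input 3 and 16 without IgG RIP 3. Lower calls over all tested genes moved as well, from 764 to 554 and 1104 in the same fits.

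Taken with both controls, 29 members (37.2%) were lower than IgG RIP and lower than input, against 9.54% of all tested genes, and none was higher than both, against 7.58%. DESeq2 called 35 lower than both and 0 higher than both, counts that were not made over all tested genes. All 3 CELF2-KI RIP libraries were below all 6 control libraries for 39 members, against 19.9% of all tested genes. In 29 members the libraries ran from CELF2-KI RIP through IgG RIP to input with no overlap, against 8.64%. The 3 comparisons share libraries, so their counts do not add to each other as evidence.

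**Figure D2:**
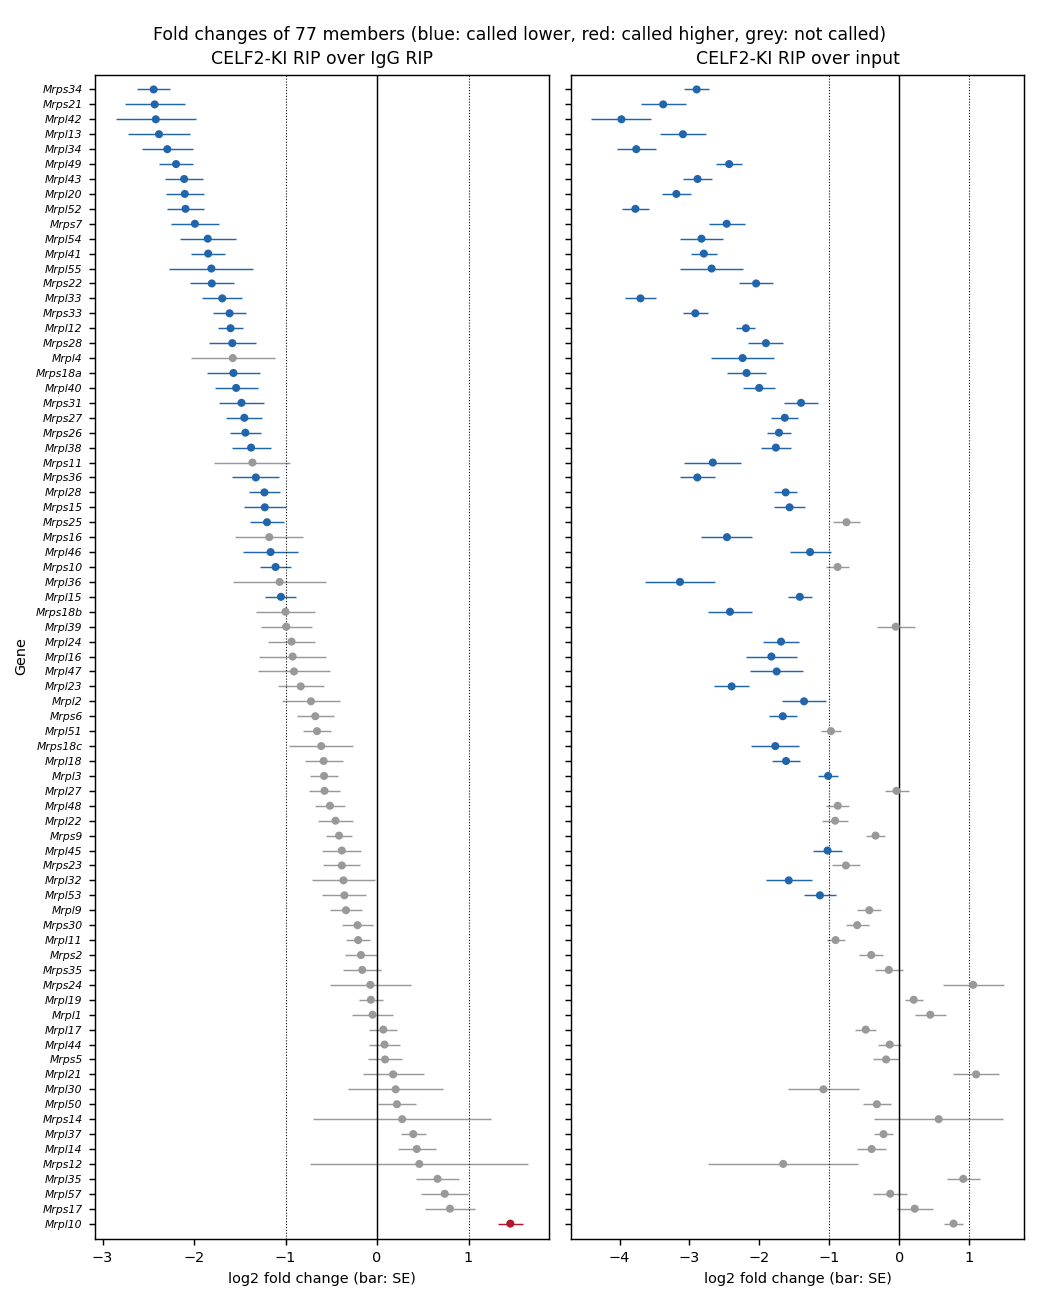
log2 fold change (point) and its SE (bar) of 77 members for CELF2-KI RIP over IgG RIP (left) and over input (right), with dotted lines at 2-fold; *Mrpl58*, with 0 counts in every CELF2-KI RIP, is not drawn. The 31 members called lower over IgG RIP and the 46 called lower over input are blue, and *Mrpl10*, in the left panel, is the only red point.

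Both subunits were represented among the lower members. Of the 49 *Mrpl* genes, 17 were lower and 1 was higher over IgG RIP, with a median log2 fold change of -0.83. Of the 29 *Mrps* genes, 14 were lower and none higher, with a median of -1.18. Over input, 29 *Mrpl* and 17 *Mrps* genes were lower, with medians of -1.42 and -1.66. Of all tested genes, 13.6% were lower and 13.4% higher over IgG RIP, and 15.5% were lower over input. The names follow the history of the proteins rather than their place: the proteins of *Mrps18a* and *Mrps30* sit in the large subunit. Members were also split by the number in their symbol, a grouping made after the values were seen. Low numbers, up to *Mrpl36* and *Mrps21*, stood in for a counterpart in bacteria, and homology was not checked gene by gene. Of *Mrpl* genes, 7 of 28 with low and 10 of 21 with high numbers were lower over IgG RIP. Their medians were -0.58 and -1.16. Among *Mrps* genes the counts were 5 of 16 and 9 of 13 in the same order, with medians of -0.84 and -1.44.

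The widest separation from IgG RIP was seen for *Mrps34*, which encodes a small-subunit protein found in mitochondria but not in bacteria. It had 2.4, 1.92 and 2.05 CPM in CELF2-KI RIPs 1, 2 and 3, 11.5, 10.3 and 12.8 CPM in the IgG RIPs and 15.8, 14.6 and 17.2 CPM in the input. The CELF2-KI RIPs lay far below both controls, and IgG RIP lay a little below the input. The log2 fold change was -2.44 (SE 0.18) over IgG RIP, with an FDR of 8.52e-06 by edgeR's quasi-likelihood test. *Mrps21*, a homolog of a bacterial small-subunit protein, had 0.64, 1.31 and 0.535 CPM in the CELF2-KI RIPs, 4.44, 5.15 and 4.01 CPM in the IgG RIPs and 8.29, 9.71 and 8.13 CPM in the input. Its 3 groups did not overlap, and its log2 fold change over IgG RIP was -2.43 (SE 0.33). *Mrpl42*, a large-subunit gene, had 0.16, 1.0 and 0.714 CPM in the CELF2-KI RIPs, 3.94, 2.87 and 3.22 CPM in the IgG RIPs and 9.76, 8.89 and 11 CPM in the input. It was lower at each step, with log2 fold changes of -2.42 (SE 0.44) over IgG RIP and -3.97 (SE 0.43) over input, while its call in IgG RIP over input, at -1.55 (SE 0.36), was lost in 6 of 9 leave-one-out fits.

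*Mrpl13* and *Mrpl34* encode large-subunit proteins with bacterial homologs. *Mrpl13* had 2.48, 1.92 and 0.981 CPM in the CELF2-KI RIPs, 6.94, 8.12 and 13.3 CPM in the IgG RIPs and 15.8, 14.6 and 15.9 CPM in the input. It was lower than IgG RIP by a log2 fold change of -2.38 (SE 0.34), with IgG RIP 3 the highest of its group and close to the input. *Mrpl34* had 0.879, 1.08 and 1.43 CPM in the CELF2-KI RIPs, 4.07, 5.25 and 7.24 CPM in the IgG RIPs and 15, 14.8 and 16 CPM in the input. Each group was clear of the next, and the fold changes were -2.29 (SE 0.28) over IgG RIP and -3.76 (SE 0.28) over input. *Mrpl49*, a large-subunit protein without a bacterial counterpart, had 3.52, 2.31 and 3.39 CPM in the CELF2-KI RIPs, 13.6, 14.2 and 14.4 CPM in the IgG RIPs and 16.5, 16 and 17.2 CPM in the input. Like *Mrps34*, it was lower in the CELF2-KI RIPs (log2 fold change -2.2 over IgG RIP, SE 0.18) with no call between IgG RIP and input (-0.24, SE 0.16). The genomic span of *Mrpl49* overlaps that of *Syvn1*.

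Over input, *Mrpl52*, *Mrpl33* and *Mrpl20*, all large-subunit genes, were among the 6 members that fell most. *Mrpl52* had 1.04, 1.15 and 1.43 CPM in the CELF2-KI RIPs, 5.44, 4.66 and 5.3 CPM in the IgG RIPs and 16.8, 16 and 16.6 CPM in the input. *Mrpl33* had 0.879, 0.924 and 0.892 CPM, 2.56, 3.27 and 2.94 CPM and 11.9, 11.5 and 11.8 CPM in the same order. In both genes the replicates of a group lay close together and the 3 groups were far apart. The log2 fold change over input was -3.77 (SE 0.20) for *Mrpl52* and -3.7 (SE 0.22) for *Mrpl33*. In both, IgG RIP was itself below input, at -1.68 (SE 0.17) and -2.01 (SE 0.19). *Mrpl20*, whose protein has a bacterial homolog, had 2.72, 2.16 and 1.87 CPM in the CELF2-KI RIPs, 8.19, 10.6 and 10.3 CPM in the IgG RIPs and 19.3, 18.6 and 23.8 CPM in the input. It was lower in all 3 comparisons, at -3.19 (SE 0.21) over input.

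Some members were already well below input in the IgG RIPs. *Mrpl36*, which encodes a very small large-subunit protein, had 1.2, 1.0 and 0.625 CPM in the CELF2-KI RIPs, 2.56, 2.87 and 0.573 CPM in the IgG RIPs and 8.44, 8.33 and 8.29 CPM in the input. The CELF2-KI RIPs and IgG RIPs overlapped, since IgG RIP 3 was below the lowest CELF2-KI RIP, and both RIPs lay below the input. *Mrpl23*, whose protein lines the end of the exit tunnel, had 3.84, 4.16 and 3.48 CPM in the CELF2-KI RIPs, 8.76, 4.16 and 7.38 CPM in the IgG RIPs and 20, 19.1 and 21.5 CPM in the input. It did not pass the test over IgG RIP (log2 fold change -0.83, FDR 0.0169 by edgeR) but did in IgG RIP over input (-1.56, SE 0.24). *Mrps36*, which is named as a small-subunit protein but is now counted as a subunit of the 2-oxoglutarate dehydrogenase complex, had 1.04, 1.39 and 1.52 CPM, 3.57, 2.68 and 3.58 CPM and 10.2, 8.25 and 10.8 CPM in the 3 groups. It was lower at each step, at -1.32 (SE 0.26) over IgG RIP, -2.89 (SE 0.25) over input and -1.56 (SE 0.23) in IgG RIP over input.

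The stalk of the large subunit, which recruits translation factors, held both the only member called higher over IgG RIP and a clear fall. *Mrpl10* encodes the stalk base and *Mrpl12* the protein that binds to it and that also associates with the mitochondrial RNA polymerase. *Mrpl10* (chr11:97041582-97049213) had 31.8, 31.9 and 32.8 CPM in the CELF2-KI RIPs, 10.8, 11.1 and 13.3 CPM in the IgG RIPs and 20.7, 17.7 and 18 CPM in the input. Its CELF2-KI RIPs lay above all 6 controls, which held for 1 member and for 25.2% of all tested genes, and its IgG RIPs lay below the input. The log2 fold change was 1.46 (SE 0.14, FDR 2.05e-05 by edgeR's quasi-likelihood test) over IgG RIP and 0.77 (SE 0.13) over input, so that it passed the FDR but not the 2-fold limit over input. *Mrpl12* (chr11:120484637-120488754) had 8.24, 7.85 and 6.51 CPM in the CELF2-KI RIPs, 22.4, 23.6 and 22.7 CPM in the IgG RIPs and 34.3, 34.2 and 35 CPM in the input. It ran the other way with no overlap, at -1.6 (SE 0.14, FDR 1.23e-05 by edgeR) over IgG RIP and -2.19 (SE 0.14) over input. Each of these genes has replicates that vary little within a group, and both kept their direction under every scaling tried. The call of *Mrpl10* was lost when the test itself was set against the 2-fold limit.

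**Figure D3:**
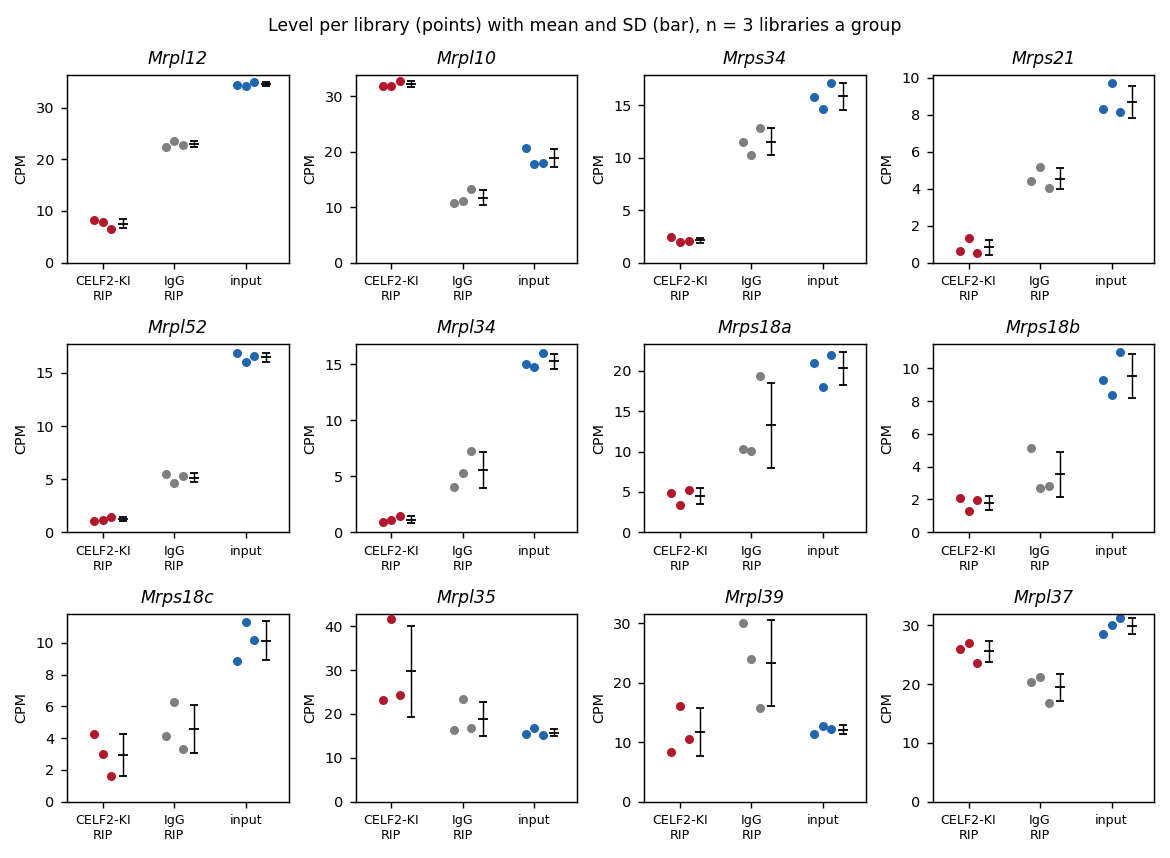
CPM per library (points) with mean and SD (bars), n = 3 libraries a group, for 12 members, each panel with its own axis from 0. *Mrpl10* is highest in the CELF2-KI RIPs (31.8 to 32.8 CPM) and *Mrpl12* lowest there (6.51 to 8.24 CPM), and *Mrps34*, *Mrps21*, *Mrpl52* and *Mrpl34* share the pattern of *Mrpl12*.

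The 3 homologs of bacterial S18 sit at different places of the ribosome, that of *Mrps18a* in the large subunit and those of *Mrps18b* and *Mrps18c* in the small one. *Mrps18a* had 4.88, 3.31 and 5.26 CPM in the CELF2-KI RIPs, 10.3, 10.1 and 19.3 CPM in the IgG RIPs and 21, 18.1 and 22 CPM in the input. *Mrps18b* had 2.08, 1.31 and 1.96 CPM, 5.13, 2.68 and 2.79 CPM and 9.29, 8.36 and 11 CPM in the same order. *Mrps18c* had 4.24, 3.0 and 1.61 CPM, 4.13, 6.24 and 3.3 CPM and 8.88, 11.3 and 10.2 CPM. All 3 were lower than input, with log2 fold changes of -2.18 (SE 0.28), -2.42 (SE 0.32) and -1.77 (SE 0.34). Over IgG RIP, *Mrps18a* alone was called (-1.57, SE 0.29), and the values were -1.0 (SE 0.32) for *Mrps18b* and -0.61 (SE 0.35) for *Mrps18c*, whose CELF2-KI RIPs and IgG RIPs overlapped. The difference between the 3 genes was not tested, *Mrps18b* was called lower under 3 of the alternatives, and the spans of *Mrps18a* and *Mrps18b* overlap other genes.

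*Mrps30*, another gene with a small-subunit name and a large-subunit protein, had 12, 12.1 and 9.64 CPM in the CELF2-KI RIPs, 12.4, 11.2 and 15.4 CPM in the IgG RIPs and 17.1, 16.2 and 18 CPM in the input. The RIPs overlapped and lay below the input, and the log2 fold change was -0.21 (SE 0.17) over IgG RIP. *Mrpl11*, a neighbour of the stalk in the factor-binding region, had 16.7, 17.3 and 16.2 CPM in the CELF2-KI RIPs, 17.1, 19.6 and 21.4 CPM in the IgG RIPs and 32.1, 30.3 and 32.3 CPM in the input. Its log2 fold change was -0.21 (SE 0.13) over IgG RIP and -0.91 (SE 0.13) over input, the latter past the FDR but under 2-fold. Its difference from *Mrpl10* and *Mrpl12* was not tested.

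Over IgG RIP, 14 members had a log2 fold change above 0 and 64 below, and over input 8 and 70. Of all tested genes, 7324 lay above 0 and 7939 below over IgG RIP, and 8617 and 6650 over input. *Mrpl37*, counted more deeply than most members, had 26, 27 and 23.6 CPM in the CELF2-KI RIPs, 20.3, 21.2 and 16.8 CPM in the IgG RIPs and 28.5, 30 and 31.2 CPM in the input. It lay above IgG RIP without overlap, but the difference did not pass the test (0.40, SE 0.14, FDR 0.0304 by edgeR). *Mrpl28*, a homolog of a bacterial protein and counted about as deeply, had 12, 8.62 and 9.19 CPM in the CELF2-KI RIPs, 20.1, 25 and 25 CPM in the IgG RIPs and 32, 29.5 and 30.5 CPM in the input, and was lower than both (-1.23, SE 0.17, over IgG RIP). *Mrps17*, which encodes a small-subunit protein, had 10.2, 9.39 and 7.23 CPM in the CELF2-KI RIPs, 4.44, 7.43 and 3.73 CPM in the IgG RIPs and 7.42, 7.02 and 8.65 CPM in the input. The groups overlapped, and at 0.80 (SE 0.27) over IgG RIP it did not pass the test. *Mrpl57* did not pass the test over IgG RIP either, with 10.5, 19.1 and 10.8 CPM, 9.82, 7.73 and 6.59 CPM and 15.4, 15.4 and 13.5 CPM, where CELF2-KI RIP 2 stood above the rest of its group, all CELF2-KI RIPs lay just above the IgG RIPs and the log2 fold change was 0.74 (SE 0.25). Its span overlaps *Ska3*.

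Over input, the highest values belonged to *Mrpl21*, *Mrps24* and *Mrpl35*, none of them called. *Mrpl35*, a large-subunit gene, had 23.3, 41.6 and 24.3 CPM in the CELF2-KI RIPs, 16.3, 23.4 and 16.9 CPM in the IgG RIPs and 15.3, 16.7 and 15.3 CPM in the input. CELF2-KI RIP 2 was well above the other 2, and the log2 fold change over input of 0.91 (SE 0.23) passed the FDR but not the 2-fold limit. *Mrpl21* had 3.04, 2.92 and 2.41 CPM, 3.25, 2.58 and 1.58 CPM and 1.18, 1.38 and 1.36 CPM, and its span overlaps *Ighmbp2*. *Mrps24*, whose protein lines the mRNA entry of the small subunit, had 3.84, 3.77 and 2.68 CPM, 3.82, 5.75 and 1.36 CPM and 1.73, 1.54 and 1.68 CPM. In both of these genes the RIPs overlapped each other, and the values over input of 1.1 (SE 0.33) and 1.05 (SE 0.44) did not pass the test. *Mrpl39* had 8.32, 16.2 and 10.6 CPM in the CELF2-KI RIPs, 30.1, 24 and 15.8 CPM in the IgG RIPs and 11.4, 12.8 and 12.2 CPM in the input. Its RIPs overlapped too. The log2 fold change was -0.99 (SE 0.28, FDR 0.0115 by edgeR) over IgG RIP. In IgG RIP over input it was 0.94 (SE 0.27, FDR 0.0195 by edgeR), and neither was called.

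Counts were too few or too uneven for 3 members. *Mrpl58*, which encodes a peptidyl-tRNA hydrolase that rescues stalled mitochondrial ribosomes, had 0 counts in all 3 CELF2-KI RIPs, 37, 0 and 0 counts in the IgG RIPs and 105, 156 and 160 counts in the input. Against a floor of 3 counts per library, it was at least 8.09-fold higher in input than in the CELF2-KI RIPs, and no fold is given against IgG RIP, where 1 library decided the value. *Mrps12*, whose protein helps to check codon pairing, had 279, 266 and 7 counts in input 1, 2 and 3, so that input 3 stood apart from its group, and no comparison of it passed the test. *Mrps14* had 14, 31 and 0 counts in the IgG RIPs, and its log2 fold change over IgG RIP, 0.27 with an SE of 0.97, gives no direction. The median member had 53.5 counts per library in the CELF2-KI RIPs, 121 in the IgG RIPs and 994 in the input, and its coefficient of variation over the 3 libraries was 18.8%, 21.1% and 5.26%, so that input levels are the most precise.

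Which transcript rows carried the counts mattered for a few members. The 78 members had 142 rows, of which 45 were predicted models, and 50 members had a single row. Predicted models took 13.6% to 16.3% of member counts in the CELF2-KI RIPs, 11% to 16.7% in the IgG RIPs and 8.76% to 9.29% in the input. In *Mrps9*, the curated row had a mean of 6.81, 5.10 and 10.1 CPM in CELF2-KI RIP, IgG RIP and input, and the predicted row 2.78, 7.69 and 2.03 CPM. In *Mrpl22* the curated row had 0.730, 1.33 and 6.59 CPM, and a predicted row 3.30, 4.62 and 1.72 CPM. In *Mrpl39* the curated row had 1.37, 1.66 and 2.34 CPM, and the predicted row 10.3, 21.6 and 9.80 CPM, which made up most of the gene. In these 3 members, chosen after their values were seen, the curated rows were highest in the input and the predicted rows given here highest in the IgG RIPs. The other predicted row of *Mrpl22* was low in all groups, at 0.589, 0.373 and 0.427 CPM in the same order. How the pseudoaligner divided reads between such rows was not tested. With curated rows alone, the calls of *Mrps10* and *Mrpl46* over IgG RIP were lost and the other 30 were kept.

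Position in the genome gave a further description. The members spanned a median of 7690 bases, against 24590 bases for all tested genes. In the 26 members with the shortest spans, 13 were lower over IgG RIP and the median log2 fold change was -1.21. In the middle 26 the values were 8 and -0.87, and in the longest 26 they were 10 and -0.63. Over input the medians were -1.92, -1.66 and -0.90, with 19, 15 and 12 members lower. Across the 78 members, which share the same libraries, Spearman's rho between span and log2 fold change was 0.09 over IgG RIP and 0.23 over input, given as a description. The 3220 other tested genes with a span between the members' lower and upper quartile had a median of -0.34 over IgG RIP, and 21.1% of them were lower, between the 13.6% of all tested genes and the 39.7% of the members. For the 2496 other genes with a mean CPM in the members' middle range the values were -0.29 and 21.8%. The part of gene length in the result was not tested, since transcript lengths were not used here.

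**Figure D4:**
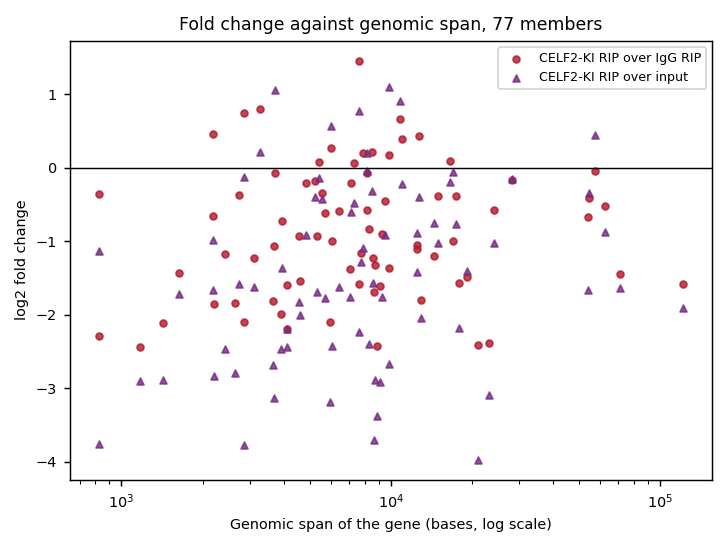
log2 fold change (vertical) against genomic span in bases (horizontal, log scale) for 77 members, with CELF2-KI RIP over IgG RIP as circles and over input as triangles. Points below 0 occur over the whole range of spans, and points above 0 lie between spans of 2181 bases (*Mrps12*) and 57230 bases (*Mrpl1*).

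The rest of the machinery of mitochondrial gene expression was described in the same way, against the same 13.6% of tested genes lower and 13.4% higher over IgG RIP. Of 5 mitoribosomal proteins with other names, 3 were lower over IgG RIP and none higher, with a median of -1.03. Among them, *Aurkaip1* had 3.34 ± 0.919, 13.4 ± 2.21 and 19.9 ± 1.08 CPM (SD, n = 3) in CELF2-KI RIP, IgG RIP and input, and a log2 fold change of -2.0 (SE 0.22). *Chchd1* was at -1.61 (SE 0.30). *Dap3*, which encodes a GTP-binding small-subunit protein, had 58.1 ± 1.8, 58.3 ± 11.1 and 64.8 ± 2.39 CPM and a log2 fold change of -0.0048 (SE 0.14). *Ptcd3* was at -0.92 (SE 0.15), past the FDR but under 2-fold. The values of *Aurkaip1*, *Dap3* and *Ptcd3* depended on predicted rows, and with curated rows alone they were -0.57, 0.60 and 0.71.

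Of 26 genes for the assembly of the mitoribosome, 4 were lower over IgG RIP and none higher, with a median of -0.61. At an unadjusted p under 0.05, edgeR gave 12 as lower and 3 as higher. The RNA helicase gene *Ddx28* had 4.7 ± 0.956, 16.6 ± 1.64 and 17 ± 0.0748 CPM (SD, n = 3) and was lower (-1.82, SE 0.18). *Rpusd3* was at -1.59 (SE 0.84) without passing the test. At the other end, the rRNA methyltransferase gene *Nsun4* was at 1.13 (SE 0.31, FDR 0.0104 by edgeR) and *Fastkd2*, which binds mitochondrial RNA, at 0.92 (SE 0.20), neither of them called.

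Of 15 tested genes for mitochondrial translation and mRNA handling, 3 were lower over IgG RIP and none higher, with a median of -0.47. At an unadjusted p under 0.05, edgeR gave 8 as lower and 1 as higher. *Slirp*, whose protein stabilizes mitochondrial mRNAs, had 0.32, 0.231 and 0.178 CPM in the CELF2-KI RIPs, 2.13, 3.47 and 2.01 CPM in the IgG RIPs and 10.1, 10.7 and 11.9 CPM in the input. At -3.33 (SE 0.36) over IgG RIP and -5.45 (SE 0.35) over input it was further down than any of the 77 members with a fold change. Its CELF2-KI RIP levels lay around the floor of 3 counts, a mean of 0.246 CPM in these libraries, so this ranking rests on few counts. *Tufm*, the elongation factor that brings tRNA to the ribosome, was lower too (-1.38, SE 0.17). The ribosome recycling factor gene *Mrrf* was at 0.74 (SE 0.15) and the translational activator gene *Taco1* at 0.54 (SE 0.35), neither of them called.

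Of 20 mitochondrial aminoacyl-tRNA synthetases, the enzymes that charge the tRNAs, 4 were lower and 1 was higher, with a median of -0.48. *Mars2* was the higher one, with 29.3, 43.2 and 35.1 CPM in the CELF2-KI RIPs, 15.3, 13.7 and 16.9 CPM in the IgG RIPs and 16.6, 15.6 and 13.9 CPM in the input. Its log2 fold change was 1.23 (SE 0.17) over IgG RIP and 1.22 (SE 0.17) over input, and it fell under 2-fold with 2 of the other scalings. *Fars2* (-1.91, SE 0.28) and *Lars2* (-1.51, SE 0.34) were lower, and *Wars2* was at 0.82 (SE 0.46). The call of *Lars2* was lost without CELF2-KI RIP 2 or without CELF2-KI RIP 3, at -1.37 and -1.40.

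None of the 12 genes for transcription and maintenance of mitochondrial DNA was called in either direction over IgG RIP, and the median was -0.44. At an unadjusted p under 0.05, edgeR gave 2 as lower and 2 as higher. *Tfam*, which packages mitochondrial DNA, was at 0.51 (SE 0.15), the helicase gene *Twnk* at 0.84 (SE 0.21), the topoisomerase gene *Top1mt* at -0.98 (SE 0.23) and the nuclease gene *Mgme1* at -1.46 (SE 1.25). The span of *Twnk* overlaps that of the member *Mrpl43*, chosen here after its values were seen, which was lower over IgG RIP (-2.11, SE 0.21) with 3.52, 2.69 and 2.23 CPM in the CELF2-KI RIPs and 11.8, 10.3 and 14.4 CPM in the IgG RIPs.

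Beside these lists stood a pair of other sets that are encoded in the nucleus. Of 79 cytoplasmic ribosomal protein genes, 69 were lower over IgG RIP, 72 over input and 53 in IgG RIP over input, with medians of -2.12, -3.50 and -1.42. Of 82 nuclear-encoded subunits of oxidative phosphorylation, 53, 64 and 45 were lower, with medians of -1.58, -2.70 and -1.11. Of all tested genes, 13.6%, 15.5% and 5.0% were lower in these 3 comparisons. In each of the 3 comparisons the members' median lay between those of these sets and that of all tested genes. No test of these differences was made, and all lists share the same libraries.

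**Figure D5:**
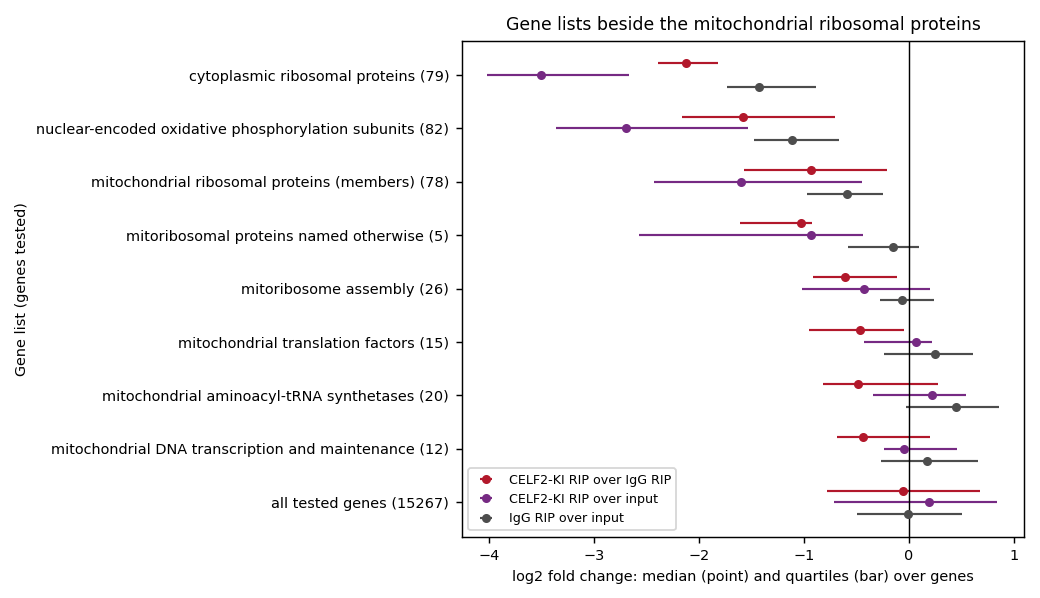
Median log2 fold change (point) and quartiles over genes (bar) of each list, for CELF2-KI RIP over IgG RIP, CELF2-KI RIP over input and IgG RIP over input, with the number of genes tested in brackets. The members are at -0.93, -1.60 and -0.59, in each case between the oxidative phosphorylation subunits and all tested genes.

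Markers of cell types also differed between the groups. Over IgG RIP, 13.4% of all tested genes were higher and 13.6% lower. The 5 erythroid markers were all lower over IgG RIP, with summed levels of 92.7 to 94.9 CPM in the CELF2-KI RIPs, 366 to 584 CPM in the IgG RIPs and 877 to 1134 CPM in the input. Of 5 radial glia markers 2 were lower, with sums of 123 to 167 CPM, 299 to 344 CPM and 360 to 377 CPM. Of 7 markers of excitatory neurons 4 were higher, with sums of 1670 to 2278 CPM, 893 to 1040 CPM and 971 to 1135 CPM. Of 5 markers of inhibitory neurons 1 was higher, and the sums were 521 to 596 CPM, 310 to 362 CPM and 420 to 442 CPM. Astrocyte, oligodendrocyte precursor, microglia and endothelial markers had 1, 0, 1 and 0 higher and 0, 0, 0 and 1 lower of 4, 4, 4 and 5 tested, and the microglia marker *P2ry12* was not tested. The part of these differences in the values of the mitochondrial ribosomal protein mRNAs was not tested.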

How the data were processed

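RNA was measured by RIP-seq in 3 CELF2-KI RIP, 3 IgG RIP and 3 input libraries. The authors depleted rRNA, made directional libraries, checked reads with FastQC 0.11.9, trimmed them with fastp 0.23.4, removed rRNA reads with Ribodetector 0.3.1 and pseudoaligned them with kallisto 0.51.1 (mm10 per the labels; the strand setting is not given in the sources used here). They deposited estimated counts, 1 row per transcript and 1 column per library, without normalization for depth or length. The paper names Ensembl as the transcriptome, and the rows carry RefSeq accessions.

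Of 107384 rows, 86722 matched a gene of the RefSeq table of GRCm38.p6 by accession without version, and 20662 stayed unmatched. The estimated counts of the rows of a gene were added and then rounded. Protein-coding genes that reached 0.5 CPM in 3 or more libraries entered edgeR 4.0.16 in R 4.3.3 (TMM scaling, a mean per group over all 9 libraries, quasi-likelihood test). Calls needed a change of at least 2-fold and an FDR (Benjamini-Hochberg, over all tested genes) under 0.01. SE is the log2 fold change divided by the root of the F statistic. A floor of 3 counts per library was used for members at 0. Reads carry no molecular identifiers, so floors cover counting error only. Figures were drawn with matplotlib 3.10.9.

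The members and lists were chosen with earlier results of these data known. Named genes are the 6 called members that rose most and the 6 that fell most in each comparison (filled to 3 where fewer were called), the 4 with the most and the 4 with the fewest CPM in input, 9 members with a role of their own or close paralogs, *Celf2*, and the 2 highest and 2 lowest genes over IgG RIP of each list of mitochondrial gene expression. Where another gene appears, the text says that it was picked with its values known. Replicates of a group differed by a chi-square per gene of 11.9 to 44.1, so none was a duplicate.

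Same-numbered libraries deviated together weakly between CELF2-KI RIP and input, with correlations of 0.11, 0.117 and 0.122 across 15267 genes. For IgG RIP the correlations were smaller, with CELF2-KI RIP (-0.056, 0.0429 and 0.0139) and with input (0.0305, 0.0646 and 0.0384). Libraries with different numbers were not compared. The number was taken to pair CELF2-KI RIP with input, from the data and not from the labels, so this pairing is an assumption. The main fit used no pairing, and the number entered only as the replicate block among the alternatives. Alternatives were 3 other scalings, no filter, DESeq2 1.42.0, glmTreat against 2-fold, the replicate block, curated transcripts alone, and leaving out each library. edgeR's test was also checked on simulated counts with known changes.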

Additional observations from a re-analysis of the deposited data

How the results depend on the processing

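The direction of the members' medians and the excess of lower over higher members held under every alternative. With total counts, the median of all tested genes moved from -0.06 to -0.42 over IgG RIP and from 0.19 to -0.27 over input, and calls over all genes from 2050 higher and 2069 lower to 937 and 3421 over IgG RIP, and from 2226 and 2366 to 531 and 3581 over input. With DESeq2 size factors those over input were 1566 and 2713, with TMM over coding and noncoding genes 1349 and 2820 over IgG RIP, 707 and 3377 over input and 783 and 1246 in IgG RIP over input (1037 and 764 before). The distance between the members' median and that of all tested genes, -0.87 over IgG RIP, was -0.86 with total counts and -0.87 both with DESeq2 size factors and with TMM over coding and noncoding genes.

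The median over IgG RIP was -1.28 with total counts, -1.14 with TMM over coding and noncoding genes and -1.21 with curated transcripts. Over input it was -1.74 with DESeq2 size factors and with DESeq2's test, -2.06 with total counts, -1.99 with TMM over coding and noncoding genes, -1.72 without a filter and -1.72 with curated transcripts. In IgG RIP over input it was -0.66 with DESeq2 size factors and with DESeq2's test, -0.68 with total counts, -0.76 with TMM over coding and noncoding genes and -0.52 with curated transcripts, and lower members numbered 20 with that TMM, 19 with DESeq2, 6 with curated transcripts and 1 with glmTreat. glmTreat tests against the 2-fold limit itself and so calls fewer genes. With it, 12 members were lower and 0 higher over IgG RIP, and 12 were lower than both controls. It called 622 of all 15267 tested genes lower and 545 higher over IgG RIP, and 53 lower in IgG RIP over input.

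Leaving out 1 library at a time gave 29 to 33 lower and 1 to 2 higher members over IgG RIP with a median of -1.03 to -0.78, 41 to 50 lower and 0 to 2 higher over input with a median of -1.73 to -1.49, 6 to 16 lower and 0 to 3 higher in IgG RIP over input with a median of -0.62 to -0.49, and 27 to 31 lower and 0 higher than both controls. Over all tested genes, these fits called 1742 to 2288 lower and 1677 to 2219 higher over IgG RIP. Over input they called 2043 to 2609 lower and 1535 to 2533 higher. In IgG RIP over input they called 526 to 1104 lower and 555 to 1537 higher. The largest of these counts came without IgG RIP 3. Calls against both controls were not counted over all genes here. The second higher member over IgG RIP appeared without IgG RIP 2, the 2 over input without IgG RIP 3 (1 each without CELF2-KI RIP 1 or 3) and the 3 in IgG RIP over input without IgG RIP 3. *Mrpl46* lost its call over IgG RIP in 7 of 9 such fits and *Mrpl55* in 6. Replicate number was set as a block over all 9 libraries, IgG RIP included, although it was taken to pair only CELF2-KI RIP with input. With this block all 32 calls over IgG RIP and all 46 over input were kept. In IgG RIP over input 10 of 11 were kept, all but *Mrpl42*. The members lower were 32, 46 and 10. Of all tested genes, 1938, 2300 and 711 were lower in the same order with the block.

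Some values changed sign, among them *Ptcd3* over IgG RIP, which had passed the FDR. Over IgG RIP, *Mrpl21* was -0.19 with total counts and -0.028 with TMM over coding and noncoding genes, *Mrps14* -0.12 with total counts, *Mrps24* 0.018 and *Dap3* 0.0036 with the replicate block, and *Mrpl11* 0.0078, *Dap3* 0.60 and *Ptcd3* 0.71 with curated transcripts. Over input, *Mrps17* was -0.24 with total counts and -0.17 with that TMM. In IgG RIP over input, *Mrpl39* was -0.38 with curated transcripts and *Mrps14* -0.18 with the block. Leaving out 1 library, the ranges over IgG RIP were -0.074 to 0.43 for *Mrpl21*, -0.47 to 0.41 for *Mrps24*, -0.31 to 1.76 for *Mrps14*, -0.035 to 1.10 for *Mrps12*, -0.15 to 0.13 for *Dap3*, -2.05 to 0.59 for *Mgme1* and -8.47 to 0 for *Mrpl58*, over input -0.47 to 0.021 for *Mrpl57* and -0.36 to 0.14 for *Mrpl39*, and in IgG RIP over input -1.20 to 0.87 for *Mrps14*. The cause of these shifts was not tested. Depth limits the RIPs, where the median member had 53.5 and 121 counts per library, against 994 in the input.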
